A study of Mus musculus with 33 samples.

Results

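Axon guidance ligands and their receptors were followed as one group of genes in mouse embryonic stem cells mutant for heterochromatin protein 1 (Hp1) or the histone methyltransferase Setdb1. The group was chosen by gene name alone and holds every gene of the tables named as a semaphorin of classes 3 to 7, a plexin, an ephrin, an Eph receptor, a netrin, a Slit, a Robo, an UNC5 receptor or a neuropilin. It has 68 members of 55487 genes, of which 35 encode ligands and 33 receptors. There are 20 semaphorins, 8 ephrins, 4 netrins and 3 Slits among the ligands, and 9 plexins, 2 neuropilins, 14 Eph receptors, 4 UNC5 receptors and 4 Robos among the receptors, spread over 19 chromosomes. RNA was sequenced in 33 libraries of C57BL/6 embryonic stem cells, in 11 groups of 3 replicates.

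Mutants of both pathways were compared with their own controls. The single mutants HP1γKO (here Hp1γ Δ/Δ, in which the gene Cbx3 was targeted), HP1βKO (Hp1β Δ/Δ, Cbx1) and HP1αKO (Hp1α Δ/Δ, Cbx5) and the double mutants HP1β/γDKO (Hp1β/γ Δ/Δ), HP1β/αDKO (Hp1α/β Δ/Δ) and HP1γ/αDKO (Hp1α/γ Δ/Δ) were constitutive CRISPR knockouts expanded from clones. The triple mutant HP1β/γ/αTKO (Hp1α/β/γ Δ/Δ) came from cells without Hp1α and Hp1β whose floxed Hp1γ alleles were removed with transfected Cre, so it was an acute loss of Hp1γ on top of a standing loss of the others. SETDB1KO cells (Setdb1 Δ/Δ) had floxed Setdb1 exons removed with Cre, and their control SETDB1FF (Setdb1 F/F) carried the floxed alleles. The wild-type (WT) libraries came as 2 sets of 3: set A was the control of the single mutants, of Hp1α/β Δ/Δ and of the triple mutant, and set B was the control of the double mutants that lack Hp1γ. Comparisons that use the same set share its libraries, so their values are given side by side and are not independent of each other. All cells were grown in serum with leukaemia inhibitory factor on mouse embryonic fibroblast feeders, which were reduced before harvest by a short plating on gelatin. For the RNA-seq of the triple mutant the paper describes a control of floxed cells given a control vector, whereas the libraries of set A are labelled WT. The labels were followed here, and no library labelled as floxed Hp1γ cells with such a vector was analysed.

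Guidance cues tell growing axons and migrating cells where to go. Semaphorins signal through plexins, with neuropilins as co-receptors for most secreted class 3 semaphorins, while ephrins are tethered to the membrane and bind Eph receptors on the neighbouring cell, and both partners can signal. Netrins act through DCC, neogenin and UNC5 receptors, the last of which mediate repulsion, and Slits repel cells through Robo receptors. The same families work outside the nervous system in vessel growth, epithelial sorting and embryonic patterning, and several are made by pluripotent cells. Hp1 proteins bind histone H3 methylated at lysine 9, a mark that Setdb1 writes at many retroelements and some genes.

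Depth ran from 17330992 to 25743193 estimated counts per library. Each targeted gene read lower in every mutant library than in every control library, but Cbx5 in the triple mutant and Setdb1 in Setdb1 Δ/Δ, with log2 changes of -0.81 and -0.93, stayed under the fold threshold of 1 used below. Cbx1 was 430.4, 443 and 448 CPM (counts scaled to a common library total) in set A and 42.1, 43.5 and 47.6 CPM in the triple mutant, whereas Cbx5, 489.7, 479 and 490.4 CPM in set A, kept 267, 269 and 276 CPM there and Cbx3 went from 186, 173 and 174 to 59.2, 63.2 and 63.9 CPM. Setdb1 was 136, 133 and 131 CPM in Setdb1 F/F and 71.6, 68.5 and 67.7 CPM in Setdb1 Δ/Δ. The summed level of 8 embryonic stem cell markers was 3507 to 3525 CPM in set A but 1379 to 1418 CPM in the triple mutant, and 7435 to 7467 CPM in Setdb1 F/F against 4839 to 4894 CPM in Setdb1 Δ/Δ. Markers of other cell types differed as well: in set A against the triple mutant the 8 primitive endoderm markers summed to 215 to 232 CPM against 76 to 83.5 CPM, the 8 neural markers to 429 to 443 CPM against 219.6 to 222 CPM and the 7 endothelial markers to 138 to 144 CPM against 75.8 to 82.3 CPM. In Setdb1 F/F against Setdb1 Δ/Δ primitive endoderm markers summed to 256 to 262 CPM against 43.2 to 48.9 CPM, neural markers to 88.4 to 92.2 CPM against 105 to 109 CPM and endothelial markers to 58 to 59.3 CPM against 121 to 124 CPM, while the 12 feeder markers read 33.3 to 34.9 CPM in set A, 25.1 to 29 CPM in the triple mutant, 21 to 21.8 CPM in Setdb1 F/F and 17.6 to 17.7 CPM in Setdb1 Δ/Δ. Single markers did not all follow these sums, by the thresholds used below. Of the 8 stem cell markers 6 were lower in the triple mutant and 2 (Dppa5a and Tfcp2l1) in Setdb1 Δ/Δ, and the rest were not called. In the triple mutant 3 of 6 tested primitive endoderm markers were higher (Gata4, Sox17 and Pdgfra) and 2 lower. Of 6 tested neural markers 2 were higher and 3 lower, and of 5 endothelial markers 2 were higher and 2 lower. In Setdb1 Δ/Δ, 1 of 8 primitive endoderm markers (Foxa2) was higher and 5 lower. Of 6 neural markers 3 were higher and 1 lower, and of 4 endothelial markers 3 were higher. The part of these markers in the results below was not tested. In bulk RNA, fewer cells that express a gene and less RNA per cell cannot be told apart. Replicate 2 of Hp1α/γ Δ/Δ stood apart from the other two libraries of its group in several members, and counts without it are given beside that comparison.

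In wild-type set A, 49 of the 68 members had a mean of at least 1 TPM, a unit that corrects for transcript length and so allows genes to be compared, and 14 reached at least 10 TPM. The most abundant member was Epha2, a receptor for A-type ephrins, at 129.5, 131 and 132 TPM in the 3 libraries. It stood far above the other Eph receptors, of which Ephb4 came next with 13 ± 0.396 TPM (SD, n = 3) and Ephb3 with 12.2 ± 0.715 TPM. The libraries of Ephb4 and Ephb3 overlapped. Plxnb2, a receptor for class 4 semaphorins, had 35.7 ± 1.39 TPM and Plxna1, a receptor used with neuropilins, had 35.6 ± 4.44 TPM, so these plexins could not be ordered. Of the membrane-bound semaphorins, Sema4b and Sema4d, the latter a ligand of B-type plexins, were level at 24.1 ± 2.34 and 24 ± 1.43 TPM. Netrin 1 (Ntn1), the founding guidance netrin, had 17.7 ± 0.943 TPM, above the other netrins at 1.01 ± 0.295 TPM or less. Among ephrins Efna4 led with 11.9 ± 0.616 TPM, among Robos Robo1 with 16.3 ± 0.79 TPM, and the Slits lay between 0.633 ± 0.202 and 1.25 ± 0.165 TPM. Nrp2 was expressed at 7.71 ± 0.262 TPM while Nrp1 was close to nothing at 0.107 ± 0.107 TPM. By library, the leading member of each other family read 22.8, 22.7 and 26.8 TPM for Sema4b, 36.6, 36.4 and 34.1 TPM for Plxnb2, 16.7, 18.6 and 18 TPM for Ntn1 and 16.8, 15.4 and 16.6 TPM for Robo1. Efna4 read 12.6, 11.7 and 11.5 TPM, Nrp2 7.67, 7.47 and 7.99 TPM and Slit3 1.26, 1.41 and 1.08 TPM, so no library of these 7 genes stood far from the others. Unc5c could not be ranked, because its libraries read 48.9, 5.7 and 8.46 TPM although its counts differed little, and replicate 1 stood apart.

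**Figure D1:**
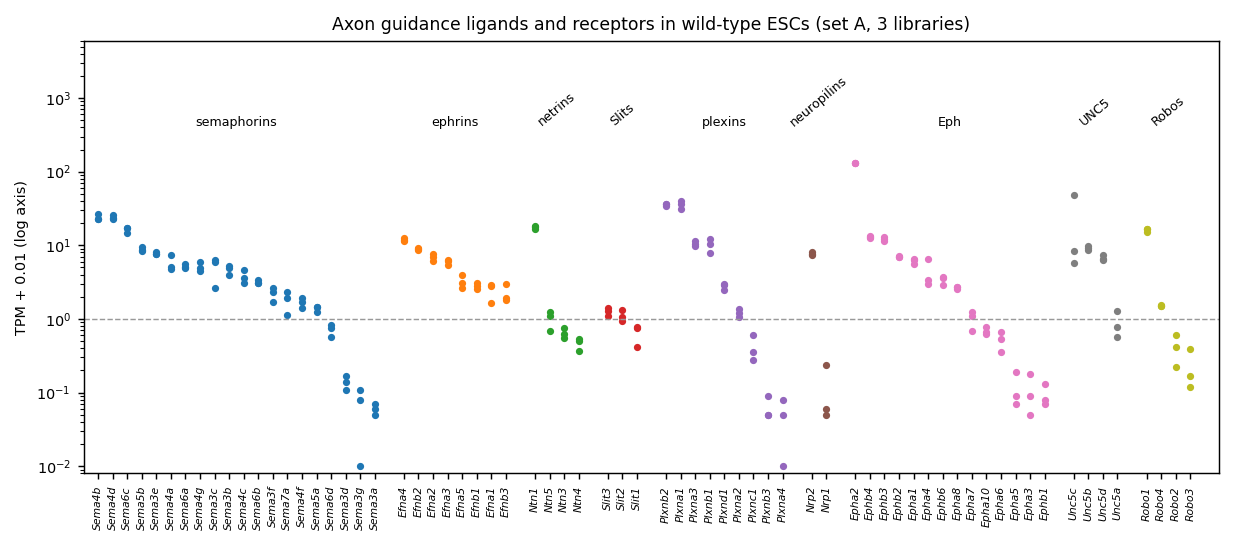
Level of each of the 68 members in wild-type set A, in TPM on a log axis (0.01 added so that values of 0 can be drawn), grouped by family and ordered by level; each point is 1 of 3 libraries and the dashed line marks 1 TPM. The Eph receptor Epha2 stands highest, and replicate 1 of Unc5c stands apart from the other libraries of that gene.

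The first comparison asks what happened to guidance genes when all 3 Hp1 proteins were lost. In the triple mutant, the receptors Unc5c, Unc5d and Epha6 and the ligands Efna3 and Sema3c, all under 10 CPM in wild-type cells, rose, and the ligands Sema6c, Ntn1 and Sema4d and the receptors Plxna3 and Epha2, all above that level, fell. Not every member followed this split by level. Sema6a and Nrp2, above 10 CPM in set A, rose, and Epha8 and Unc5a, under it, fell. Genes were called when the adjusted p of edgeR's quasi-likelihood test was under 0.05 and the log2 fold change was beyond 1 in size. Of 66 members tested, 16 were higher and 19 were lower; of all genes tested, 25.1% were higher and 17.1% were lower. The median log2 fold change of the members was -0.626, beside 0.0349 for all genes. The share of members called higher was thus close to that of all genes and the share called lower was above it, with no test made of the list as a whole. By role, 6 of 35 ligands were higher and 10 lower, and 10 of 31 tested receptors were higher and 9 lower. Among the higher members, Epha6, Epha3, Sema3a and Sema3g had enough counts to be tested in no other Hp1 mutant compared with wild type. Epha5, Nrp1, Plxna4 and Robo2 also had too few counts in set A, which left them untested in other comparisons with it. All of these genes could be called higher but not lower. How many of all genes tested were of this kind was not counted.

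**Figure D2:**
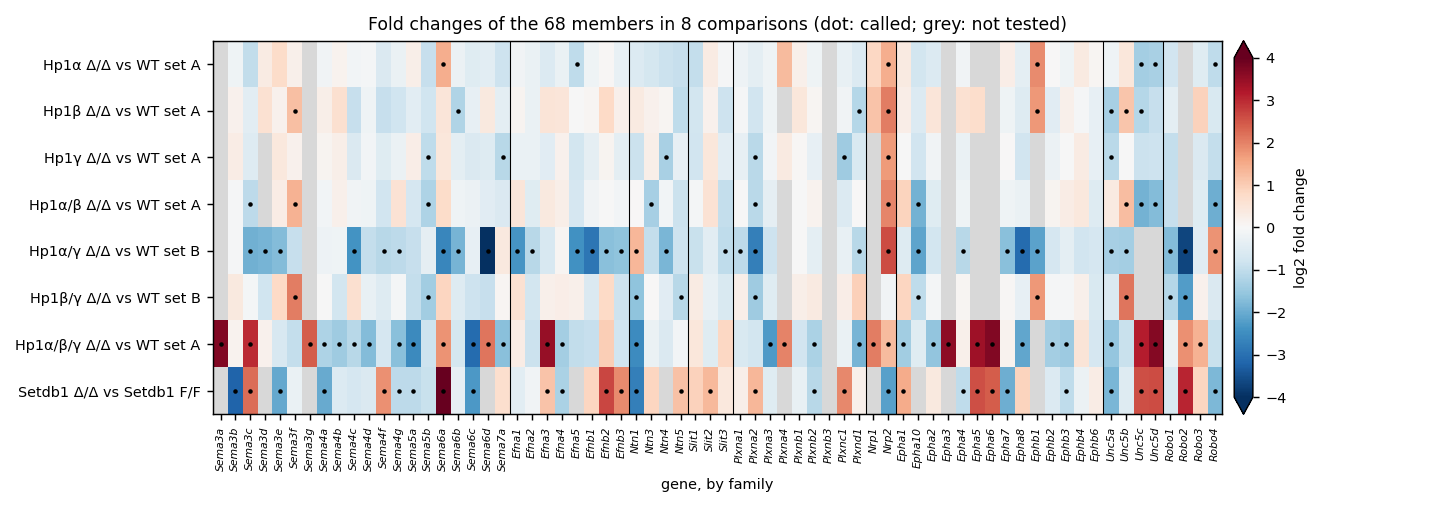
Log2 fold change of the 68 members (columns, by family) in 8 comparisons (rows), red for higher and blue for lower, with a dot where the member was called and grey where it was not tested. In the triple mutant members moved in both directions, in Hp1α/γ Δ/Δ 29 of 58 tested members were lower and 3 higher, and Nrp2 is red in 6 of 7 Hp1 mutants.

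The repulsive netrin receptors Unc5c and Unc5d were among the members that rose most. Unc5c (chr3:141465216-141834924 on GRCm38) read 4.4, 5.19 and 6.88 CPM in set A and 47.2, 44.3 and 49.3 CPM in the triple mutant, a log2 fold change of 3.14 ± 0.10 SE, adjusted p = 8.9e-16. Unc5d (chr8:28646717-29219636) read 6.15, 6.07 and 7.51 CPM in set A and 79.1, 77.9 and 85.8 CPM in the triple mutant, a log2 change of 3.66 ± 0.08 SE, adjusted p = 8.6e-19. Every mutant library lay several-fold above every control library for both genes. Their relatives were not called higher. Unc5a read 2.08, 2.13 and 1.55 CPM in set A and 0.558, 0.903 and 0.464 CPM in the triple mutant (log2 change -1.56 ± 0.36 SE, adjusted p = 5.7e-04), and Unc5b, the endothelial member of the family, changed by -0.89 ± 0.07, under the fold threshold. Unc5d lies on chromosome 8, where the median log2 change of all tested genes in this comparison exceeded that of other chromosomes by 0.52; the part of that in the value of Unc5d was not tested.

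Ephrin A3 (Efna3, chr3:89313899-89322965), a membrane-tethered ligand of A-type Eph receptors, read 8.74, 8.25 and 8.44 CPM in set A and 94.4, 92.5 and 90.6 CPM in the triple mutant (log2 change 3.48 ± 0.06 SE, adjusted p = 6.8e-20). The groups did not come near each other. Of its exon bases, 14.1% overlap an antisense gene, Gm15998, and whether counting used strand is not given in the sources used here. Other members share exon bases with an antisense gene too, among them Efna4 (10.5%, 4731419I09Rik), Plxna1 (10.7%, Gm26811), Ntn5 (23.4%, Sec1) and Sema4c (7.27%, D430040D24Rik), and reads of such pairs may not be told apart. No other ephrin was called higher, and Efna4 was lower, from 12.9, 11.8 and 11.6 CPM to 4.25, 4.37 and 5.11 CPM (log2 change -1.36 ± 0.13 SE, adjusted p = 1.1e-08). Efnb2 and Efna5 lay just under the fold threshold and were not called.

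The A-type Eph receptors Epha6, Epha3 and Epha5, which bind such ephrins, rose from under 1 CPM. Epha6 (chr16:59653483-60605531) read 0.648, 0.278 and 0.291 CPM in set A and 6.65, 4.18 and 4.99 CPM in the triple mutant (log2 change 3.72 ± 0.32 SE, adjusted p = 2.6e-09), Epha3 rose by 3.57 ± 0.36 and Epha5 by 3.40 ± 0.39 on the log2 scale. All libraries of the 2 groups were separate for each gene. Of the Hp1 mutants compared with wild type, only the triple mutant had enough counts for Epha6 and Epha3 to be tested. Epha5 was tested in 2 such comparisons. With so few counts in set A, Epha6, Epha3 and Epha5 could be called higher but not lower. Epha6 and Epha3 lie on chromosome 16, whose median log2 change was -0.34 away from that of other chromosomes, a shift opposite to the rise of both. Ephb3, which fell, is on the same chromosome, in the direction of the shift, whose part in its value was not tested. Among the better expressed Eph receptors 5 fell. Epha2 fell from 346, 341 and 349 CPM to 111, 118 and 110.1 CPM (log2 change -1.58 ± 0.03 SE, adjusted p = 2.3e-19), and Ephb2 changed by -1.36. Ephb3 and Epha1, both receptors of membrane-tethered ephrins, read 35.3, 38.4 and 36.2 and 14.7, 14.3 and 12.6 CPM in set A. In the triple mutant Ephb3 was 13.9, 12.9 and 12.6 CPM (log2 change -1.44 ± 0.07 SE, adjusted p = 6.6e-13) and Epha1 3.77, 5.23 and 6.27 CPM (log2 change -1.40 ± 0.15 SE, adjusted p = 5.4e-08), with no overlap for either. In Epha1, 6.01% of exon bases overlap Zyx on the other strand. Epha8 went from 9.58, 9.36 and 8.63 CPM to 1.76, 2.8 and 1.9 CPM (log2 change -2.07 ± 0.18 SE, adjusted p = 3.1e-09) but read 0.66, 1.03 and 16.5 TPM there, so replicate 3 stood apart in TPM and not in CPM.

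Of 13 membrane-bound semaphorins 2 were higher and 8 lower, where 25.1% and 17.1% of all genes were, with no test made of the class. Of 7 class 3 semaphorins 3 were higher, but Sema3a and Sema3g among them, at 0.139 to 0.194 and 0 to 0.324 CPM in set A, had enough counts to be tested only in comparisons that include the triple mutant, so the classes are not set against each other. Sema3c (chr5:17574281-17730268), a secreted cue for cortical axons and the cardiac outflow tract, read 4.86, 9.13 and 8.39 CPM in set A and 49.3, 62.3 and 60.2 CPM in the triple mutant (log2 change 2.98 ± 0.13 SE, adjusted p = 9.5e-14). The lowest triple mutant value was above the highest wild-type value by several-fold. Sema6a, a transmembrane ligand of A-type plexins, rose from 19.3, 19.3 and 18 CPM to 62.3, 63.4 and 68.2 CPM (log2 change 1.81 ± 0.06 SE, adjusted p = 8.9e-16). Sema6c (chr3:95160457-95174024), its close relative, fell from 19.1, 19.5 and 23 CPM to 2.4, 2.66 and 2.13 CPM (log2 change -3.07 ± 0.13 SE, adjusted p = 5.6e-14), so these class 6 semaphorins went in opposite directions, with no overlap of libraries in either. Sema5a, a matrix-associated semaphorin, fell from 10.3, 11.2 and 11.1 CPM to 1.72, 1.81 and 1.93 CPM (log2 change -2.54 ± 0.16 SE, adjusted p = 1.5e-11). In class 4, Sema4d went from 73.7, 77.5 and 74.6 to 23.8, 20.1 and 21.7 CPM (log2 change -1.75 ± 0.06 SE, adjusted p = 2.4e-15). Sema4g went from 13.2, 13 and 16.6 to 4.38, 4.28 and 4.33 CPM (log2 change -1.68 ± 0.13 SE, adjusted p = 6.5e-10) and Sema4b from 62.6, 62.7 and 73.6 to 23.5, 23.9 and 25.3 CPM (log2 change -1.42 ± 0.07 SE, adjusted p = 2.5e-13). None of these groups overlapped.

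Among the receptors for semaphorins, 3 of 8 tested plexins fell and both neuropilins rose, counts too small to be read against the shares of all genes. Plxna3, which pairs with neuropilins, fell from 26.4, 27.5 and 26.9 CPM to 5.53, 5.94 and 4.99 CPM (log2 change -2.26 ± 0.10 SE, adjusted p = 4.0e-14), and Plxnd1, the receptor of Sema3e, fell from 8.88, 12.2 and 12 to 2.57, 3.52 and 2.86 CPM (log2 change -1.85 ± 0.17 SE, adjusted p = 5.7e-09). Plxnb2 changed by -1.25. The plexin called higher was Plxna4, at 0.0485 to 0.648 CPM in set A, on chromosome 6, whose median stood 0.36 above that of other chromosomes. Nrp2 (chr1:62703285-62818695), the co-receptor for Sema3f and Sema3c, rose from 35.9, 34.8 and 37.2 CPM to 83.8, 85.3 and 85.2 CPM (log2 change 1.27 ± 0.05 SE, adjusted p = 7.2e-15), and against set B the change was 0.76, no longer past the fold threshold. Nrp1 rose by 2.06 ± 0.56, from values of 0.097 to 0.601 CPM, and lies on chromosome 8 like Unc5d. Like Plxna4 and Robo2, Nrp1 had too few counts in set A to be called lower. Of the other ligands Ntn1 fell, from 62.8, 68.3 and 61.1 CPM to 10.6, 10.5 and 11.9 CPM (log2 change -2.51 ± 0.07 SE, adjusted p = 6.5e-17), while Slit1, Slit2 and Slit3 changed by 0.44, -0.48 and 0.84 and were not called, and Robo2 and Robo3 rose from low levels by 1.84 ± 0.38 and 1.40 ± 0.40.

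**Figure D3:**
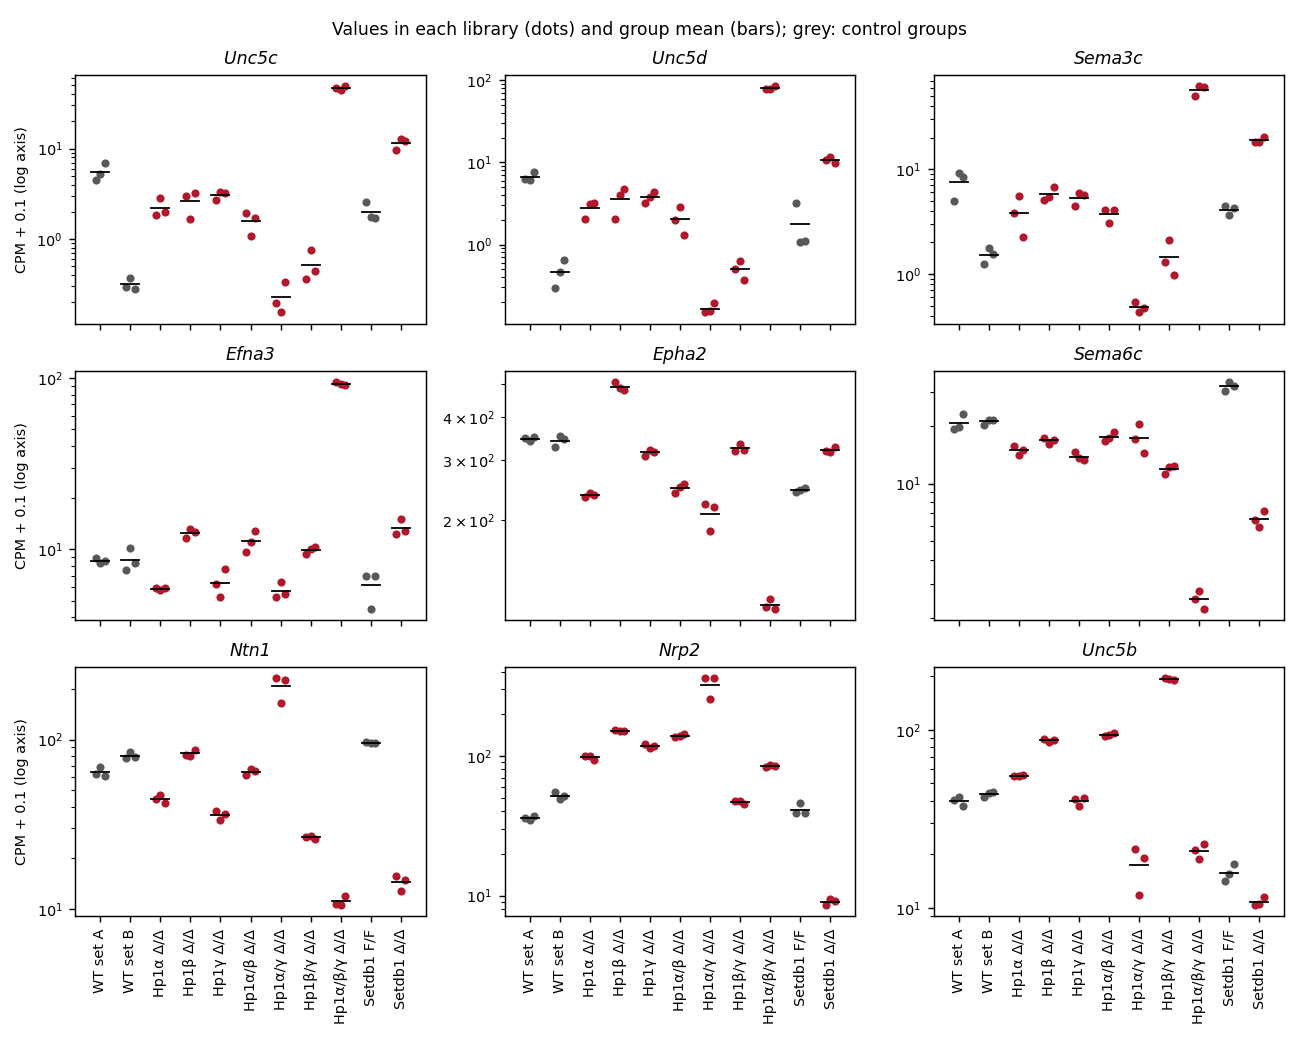
Level of 9 members in each library of the 11 groups, in CPM on a log axis (0.1 added); dots are libraries, bars are means of 3 and grey dots are the control groups. The triple mutant libraries of Unc5c, Unc5d, Sema3c and Efna3 lie above all other groups, and those of Epha2, Sema6c and Ntn1 below.

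For 5 members that the results turn on, chosen after their values were seen, 1 promoter window each is shown. No binding or methylation was measured here. Windows of 300 bases, from 250 before to 50 after a RefSeq start on GRCm38.p6, were found for 59 of the 68 members, in 75 windows. Sema6a, Unc5d, Plxna4, Plxna1, Slit1, Sema3b, Ntn1, Efnb3 and Sema3f had no entry. Unc5c (chr3:141465314-141465613, plus strand), Sema3c (chr5:17574566-17574865, plus strand), Efna3 (chr3:89322890-89323189, minus strand) and Nrp2 (chr1:62703067-62703366, plus strand) were higher in the triple mutant and Sema6c (chr3:95160170-95160469, plus strand) was lower. Each is written 5′ to 3′, with capitals where a motif searched below (the E2F-type site GGCGGGA, or TCCCGCC, the same site on the other strand) lies.
Unc5c: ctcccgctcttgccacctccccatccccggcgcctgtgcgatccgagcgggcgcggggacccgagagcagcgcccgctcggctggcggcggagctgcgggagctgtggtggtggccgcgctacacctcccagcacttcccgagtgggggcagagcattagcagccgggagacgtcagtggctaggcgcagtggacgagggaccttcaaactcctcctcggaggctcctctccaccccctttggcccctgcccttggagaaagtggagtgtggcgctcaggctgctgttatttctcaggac
Sema3c: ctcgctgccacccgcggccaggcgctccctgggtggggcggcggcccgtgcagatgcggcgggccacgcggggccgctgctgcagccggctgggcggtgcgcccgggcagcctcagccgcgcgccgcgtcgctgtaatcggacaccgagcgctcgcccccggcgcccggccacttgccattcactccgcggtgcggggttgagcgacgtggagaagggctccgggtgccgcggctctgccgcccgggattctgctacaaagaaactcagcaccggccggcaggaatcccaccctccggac
Efna3: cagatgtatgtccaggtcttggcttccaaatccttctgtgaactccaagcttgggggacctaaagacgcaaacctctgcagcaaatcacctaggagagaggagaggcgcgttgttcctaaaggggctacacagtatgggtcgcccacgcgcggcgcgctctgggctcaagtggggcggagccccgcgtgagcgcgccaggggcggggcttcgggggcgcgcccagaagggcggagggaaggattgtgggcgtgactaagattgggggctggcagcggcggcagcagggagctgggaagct
Nrp2: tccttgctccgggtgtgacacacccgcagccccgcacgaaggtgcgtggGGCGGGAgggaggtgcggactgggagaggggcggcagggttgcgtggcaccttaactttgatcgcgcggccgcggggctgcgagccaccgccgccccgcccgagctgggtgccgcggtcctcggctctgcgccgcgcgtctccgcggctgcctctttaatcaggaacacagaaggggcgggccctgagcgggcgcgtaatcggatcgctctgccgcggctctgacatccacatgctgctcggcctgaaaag
Sema6c: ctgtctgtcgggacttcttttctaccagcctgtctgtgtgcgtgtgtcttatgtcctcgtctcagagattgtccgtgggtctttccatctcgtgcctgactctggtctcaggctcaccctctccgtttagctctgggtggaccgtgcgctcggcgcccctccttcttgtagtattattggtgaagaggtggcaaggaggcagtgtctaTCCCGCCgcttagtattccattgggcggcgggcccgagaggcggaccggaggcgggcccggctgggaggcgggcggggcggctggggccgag
In the windows shown, the observed to expected ratio of CpG was 0.685 for Unc5c, 0.979 for Sema3c, 0.752 for Efna3, 0.992 for Nrp2 and 0.79 for Sema6c. Efna3 and Sema6c each have a further window, not shown, with ratios of 1.01 and 0.108. Neither of these holds a motif named below. The median was 0.659 over the members' windows and 0.384 over 32851 windows of all genes. The E-box CACGTG and the E2F-type site GGCGGGA, which do not hold each other, were searched on both strands. CACGTG was in 7.15% of all windows and in 6.67% of members' windows, and GGCGGGA in 11.3% of all windows and in 20% of members' windows. GGCGGGA was in 23.5% of windows of members higher in the triple mutant and in 22.2% of those lower. In Setdb1 Δ/Δ it was in 0 of 16 windows of members higher and in 26.3% of 19 windows of those lower. The 16 windows are of 13 genes and the 19 of 13 genes. Overlapping windows of Sema4a, lower in both knockouts, hold the same copy of the site, which the shares of lower members count more than once. These shares are descriptions, and the absence of letters from a window says nothing about a factor.

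The triple mutant was also set against Hp1α/β Δ/Δ, which differs from it in Hp1γ and in the way the cells were made. Of 66 tested members 18 were higher and 21 lower; of all genes tested, 25.4% were higher and 16% lower, so that the share of members was again close to that of all genes among the higher and above it among the lower. Unc5d read 1.91, 2.78 and 1.22 CPM in Hp1α/β Δ/Δ and 79.1, 77.9 and 85.8 CPM in the triple mutant (log2 change 5.36 ± 0.13 SE, adjusted p = 2.0e-15). Unc5c went from 1.86, 0.996 and 1.6 to 47.2, 44.3 and 49.3 CPM (log2 change 5.03 ± 0.13 SE, adjusted p = 4.5e-15), Epha6 from 0.0515, 0.083 and 0.047 to 6.65, 4.18 and 4.99 CPM (log2 change 6.32 ± 0.41 SE, adjusted p = 5.1e-10) and Sema3c from 4.02, 2.95 and 4.0 to 49.3, 62.3 and 60.2 CPM (log2 change 4.0 ± 0.12 SE, adjusted p = 2.6e-14). Each of these levels in Hp1α/β Δ/Δ was also below that in wild-type set A. Epha6, Epha3, Epha5, Sema3a, Robo2, Plxna4 and Nrp1, all called higher here, had too few counts in Hp1α/β Δ/Δ to be called lower. On chromosome 8, where Unc5d lies, the median in this comparison exceeded that of other chromosomes by 0.48. The part of that in the value of Unc5d was not tested. Sema3f, a secreted ligand of Nrp2 and plexin A3, was high in the double mutant and low in the triple, at 9.43, 6.85 and 8.42 and 1.72, 1.71 and 1.28 CPM (log2 change -2.37 ± 0.20 SE, adjusted p = 1.4e-08), and Unc5b went the same way, from 92, 93.9 and 95.8 to 21, 18.7 and 22.8 CPM (log2 change -2.15 ± 0.06 SE, adjusted p = 2.0e-14). Sema6c (16.6, 17.3 and 18.4 CPM in Hp1α/β Δ/Δ), Ntn1 (61.8, 66.4 and 64.8 CPM) and Epha1 (24.2, 25.2 and 26.8 CPM) were lower in the triple mutant by this test too, with log2 changes of -2.84, -2.53 and -2.29.

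The same question was asked of Setdb1 in its own control. In Setdb1 Δ/Δ, Sema6a, Efnb2, Epha5 and the UNC5 receptors Unc5c and Unc5d rose, while Ntn1, Sema6c, Sema3b and Nrp2 fell. Of 56 tested members 16 were higher and 15 lower; of all genes tested, 18.5% were higher and 11.4% lower, below the share of members in both directions. The members' median log2 change was -0.184, beside 0.0148 for all genes. Sema6a, almost silent in the control with 0.20, 0.113 and 0.118 CPM, reached 11.1, 12.5 and 11.8 CPM (log2 change 6.29 ± 0.22 SE, adjusted p = 3.3e-14). The control rests on 8 counts over 3 libraries, so Sema6a could be called higher but not lower. B-type ephrins, which carry a cytoplasmic tail, were higher in 2 of 3 cases. Efnb2 read 2.25, 2.6 and 2.95 CPM in Setdb1 F/F and 16, 16.7 and 16.4 CPM in Setdb1 Δ/Δ (log2 change 2.67 ± 0.12 SE, adjusted p = 5.3e-13), and Efnb3 2.6, 2.82 and 3.13 and 10.4, 9.19 and 11.8 CPM (log2 change 1.90 ± 0.14 SE, adjusted p = 9.9e-10). In Efnb2 and Efnb3 the libraries of the 2 groups did not overlap.

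Receptors rose in Setdb1 Δ/Δ as well. Unc5c read 2.5, 1.64 and 1.59 CPM in Setdb1 F/F and 9.54, 12.6 and 11.9 CPM in Setdb1 Δ/Δ (log2 change 2.57 ± 0.17 SE, adjusted p = 2.3e-10). Unc5d read 3.15, 0.96 and 1.0 and 10.5, 11.5 and 9.72 CPM (log2 change 2.60 ± 0.25 SE, adjusted p = 4.5e-08); its control replicate 1 was above the other two but still below every knockout library. Epha5 went from 4.2, 3.1 and 2.24 to 19.8, 19.1 and 18.4 CPM (log2 change 2.58 ± 0.14 SE, adjusted p = 8.3e-12), Sema3c from 4.35, 3.56 and 4.13 to 17.9, 18.2 and 20 CPM (log2 change 2.23 ± 0.10 SE, adjusted p = 1.5e-12) and Epha1 from 4.6, 4.85 and 3.84 to 11.6, 12.8 and 12.6 CPM (log2 change 1.49 ± 0.11 SE, adjusted p = 1.8e-09). Epha1 thus rose here although it fell in the triple mutant. Among those that fell, Ntn1 went from 96.4, 95.1 and 94.8 CPM to 15.5, 12.7 and 14.8 CPM (log2 change -2.72 ± 0.06 SE, adjusted p = 1.2e-17), Sema6c from 30.2, 33.7 and 32.2 to 6.33, 5.83 and 7.12 CPM (log2 change -2.30 ± 0.08 SE, adjusted p = 3.6e-14), and Nrp2 from 39.1, 45.7 and 38.7 to 8.48, 9.38 and 9.06 CPM (log2 change -2.18 ± 0.08 SE, adjusted p = 5.0e-14). The secreted Sema3b went from 7.65, 6.04 and 6.32 to 0.653, 0.805 and 0.66 CPM (log2 change -3.22 ± 0.20 SE, adjusted p = 1.2e-10) and Sema3e from 8.95, 8.24 and 7.44 to 2.06, 1.94 and 1.84 CPM (log2 change -2.06 ± 0.15 SE, adjusted p = 9.8e-10). None of these groups overlapped. Sema4a, which signals in immune cells, went from 18, 18.2 and 18.1 to 3.66, 4.26 and 5.33 CPM (log2 change -2.01 ± 0.11 SE, adjusted p = 1.9e-11), Robo4, an endothelial Robo, from 8.25, 5.93 and 8.32 to 1.86, 1.99 and 2.5 CPM (log2 change -1.81 ± 0.18 SE, adjusted p = 5.2e-08) and Efna4 from 11.1, 11.5 and 11.9 to 4.27, 4.78 and 4.91 CPM (log2 change -1.28 ± 0.11 SE, adjusted p = 7.4e-09), again with no overlap.

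Some members were called in both knockouts. Of 56 members tested in both, 8 were higher in both and 9 lower in both; of the 15470 genes tested in both, 9.5% and 5.11% were. This excess over all genes was not tested. Epha5, Epha6 and Robo2 had too few counts in set A to be called lower in the triple mutant. Sema6a had too few in Setdb1 F/F to be called lower in Setdb1 Δ/Δ. The higher ones were Efna3, Epha5, Epha6, Robo2, Sema3c, Sema6a, Unc5c and Unc5d, and among the lower ones were Ntn1, Sema6c, Sema5a, Sema4g, Ephb3 and Plxnb2. Nrp2 was higher in the triple mutant and lower in Setdb1 Δ/Δ, and Epha1 the reverse. The difference of the 2 effects was tested over the 12 libraries of both experiments, with no fold threshold: 13 of 65 tested members had the larger (more positive) effect in the triple mutant and 32 the more positive effect in Setdb1 Δ/Δ, where over all genes 31.3% and 33.6% did, a lower share of members than of all genes in the first case and a higher one in the second. Efna3 differed by 2.32 ± 0.16 SE, adjusted p = 6.6e-12, Nrp2 by 3.43 ± 0.09 SE, adjusted p = 2.8e-19 and Sema6a by -4.51 ± 0.26 SE, adjusted p = 5.2e-13 on the log2 scale. Unc5c, with effects of 3.14 and 2.57, differed by 0.54 (adjusted p = 0.057), and Ntn1, with -2.51 and -2.72, by 0.19 (adjusted p = 0.092). A p that misses the threshold does not show that their effects were alike. The 2 experiments also differed in cell line and control, which cannot be told apart from the genotype here.

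**Figure D4:**
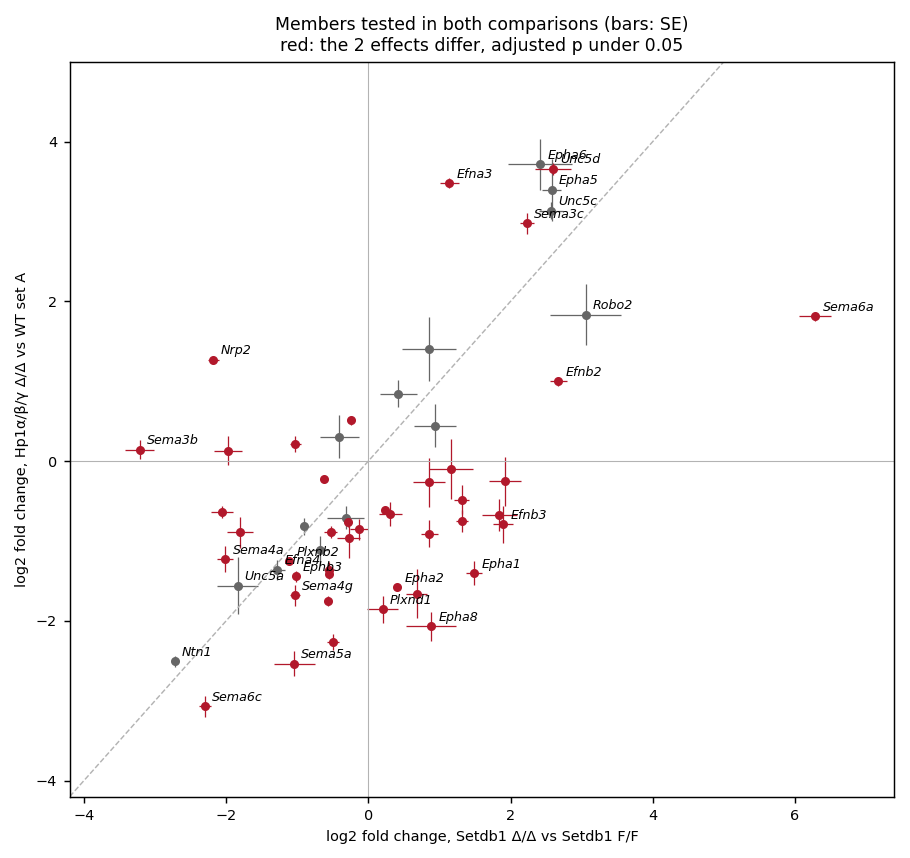
Log2 fold change of the 56 members tested in both comparisons, Setdb1 Δ/Δ against Setdb1 F/F on the x axis and the triple mutant against wild-type set A on the y axis, with SE as bars; red points mark a difference of the effects at adjusted p under 0.05 and the dashed line marks equal effects. Unc5c and Unc5d lie high in both, Efna3 high on the y axis but less so on the x axis, Sema6a far to the right, Nrp2 above left, and Ntn1 and Sema6c low in both.

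The single mutants changed few members, and Nrp2 was called higher in each. In Hp1α Δ/Δ 3 of 61 tested members were higher and 4 lower, where 1.56% and 3.31% of all genes were. In Hp1β Δ/Δ 4 of 61 were higher and 4 lower, where 2.75% and 6.36% were. In Hp1γ Δ/Δ 1 of 58 was higher and 6 lower, where 2.04% and 3.55% were. The counts are small, from 1 to 6 members in a direction, and nothing is read from their distance to the background. In that comparison the count rests on single libraries: without mutant replicate 2, 4 members were called, and without WT replicate 1 of set A, 3. Nrp2 read 35.9, 34.8 and 37.2 CPM in set A, 100.04, 100.3 and 93.8 CPM in Hp1α Δ/Δ, 153, 152 and 149.8 CPM in Hp1β Δ/Δ and 121, 113 and 119 CPM in Hp1γ Δ/Δ. The log2 changes were 1.44 ± 0.05, 2.06 ± 0.05 and 1.70 ± 0.04, with adjusted p = 3.6e-15, 5.3e-10 and 1.1e-15. Every mutant library lay above every wild-type library. Against set B the change in Hp1α Δ/Δ was under the threshold, at 0.93.

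Other members changed in 1 or more of the single mutants. In Hp1α Δ/Δ, Sema6a rose from 19.3, 19.3 and 18 to 48.7, 55.7 and 50.7 CPM (log2 change 1.45 ± 0.07 SE, adjusted p = 5.9e-13), and Efna5, an A-type ephrin, fell from 7.82, 8.85 and 8.82 to 3.66, 4.64 and 4.44 CPM (log2 change -1.0 ± 0.15 SE, adjusted p = 1.2e-05), close to the threshold and under it without mutant replicate 1 (-0.90) or without replicate 2 or 3 of set A (both -0.97). Unc5c and Unc5d were lower, at 1.76, 2.74 and 1.91 CPM (log2 change -1.36 ± 0.22 SE, adjusted p = 4.8e-05) and 1.94, 3.05 and 3.1 CPM (log2 change -1.29 ± 0.19 SE, adjusted p = 1.7e-05). In Hp1β Δ/Δ, Unc5b rose from 40.4, 41.8 and 37 to 88.8, 85 and 87.1 CPM (log2 change 1.11 ± 0.06 SE, adjusted p = 1.0e-07) and Sema3f from 3.65, 3.06 and 2.67 to 8.56, 6.25 and 6.94 CPM (log2 change 1.19 ± 0.18 SE, adjusted p = 2.6e-04), while Sema6b, a transmembrane semaphorin, fell from 9.11, 8.25 and 8.24 to 4.1, 3.74 and 3.54 CPM (log2 change -1.19 ± 0.14 SE, adjusted p = 3.4e-05). Plxnd1 read 7.61, 3.83 and 4.03 CPM there (log2 change -1.13 ± 0.23 SE, adjusted p = 0.0018) and Unc5c 2.89, 1.55 and 3.15 CPM (log2 change -1.14 ± 0.27 SE, adjusted p = 0.0041). The calls of Unc5c and Plxnd1 rest on single libraries, the changes being -0.88 and -0.95 without mutant replicate 2, -0.94 for Unc5c without replicate 3 of set A and -0.98 for Plxnd1 without mutant replicate 3. Against set B, Sema3f changed by 0.97 and Unc5b by 0.99 in Hp1β Δ/Δ, and Sema6a by 0.90 in Hp1α Δ/Δ, under the threshold. In Hp1γ Δ/Δ, the lower members included Plxna2, a receptor for class 3 and class 6 semaphorins, at 11.4, 9.03 and 8.68 CPM in set A and 4.77, 5.24 and 3.84 CPM in the mutant (log2 change -1.08 ± 0.15 SE, adjusted p = 1.2e-05), and Sema5b, at 21.6, 18.9 and 18 and 9.9, 9.2 and 9.86 CPM (log2 change -1.02 ± 0.10 SE, adjusted p = 6.9e-08). Neither call held without replicate 1 of set A, where each change was -0.94, nor without mutant replicate 3 for Plxna2 (-0.96) or mutant replicate 2 for Sema5b (-0.99). Sema5b is on chromosome 16, where the median change of all tested genes lay -0.51 from that of the other chromosomes in Hp1γ Δ/Δ, and Plxna2 is not. The part of the shift in the value of Sema5b was not tested.

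The double mutants were read against 2 sets of controls. In Hp1α/β Δ/Δ 3 of 57 tested members were higher and 8 lower, where 2.96% and 5.19% of all genes were. Nrp2 rose to 137, 139 and 144 CPM (log2 change 1.96 ± 0.05 SE, adjusted p = 1.7e-15), Sema3f to 9.43, 6.85 and 8.42 CPM (log2 change 1.39 ± 0.18 SE, adjusted p = 4.9e-06) and Unc5b to 92, 93.9 and 95.8 CPM (log2 change 1.24 ± 0.05 SE, adjusted p = 2.7e-12), from the set A levels given above, with no overlap. The lower members included Unc5c (1.86, 0.996 and 1.6 CPM, log2 change -1.90 ± 0.25 SE, adjusted p = 9.1e-06), Unc5d (1.91, 2.78 and 1.22 CPM, log2 change -1.72 ± 0.24 SE, adjusted p = 1.2e-05), Sema5b (8.09, 7.55 and 9.22 CPM, log2 change -1.24 ± 0.11 SE, adjusted p = 4.2e-08) and Plxna2 (4.53, 4.73 and 4.56 CPM, log2 change -1.07 ± 0.14 SE, adjusted p = 9.8e-06). Sema5b is on chromosome 16, whose median here stood -0.43 from other chromosomes; the part of that in its value was not tested. Without replicate 1 of set A the change of Plxna2 was -0.94. In Hp1β/γ Δ/Δ 3 of 58 were higher and 7 lower, where 7.32% and 4.54% were, so the share of members was below the background among the higher and above it among the lower. Unc5b there read 41.7, 44.2 and 44.4 CPM in set B and 194, 194 and 189 CPM in the mutant (log2 change 2.15 ± 0.05 SE, adjusted p = 2.5e-14), and Sema3f 3.16, 3.9 and 3.89 and 14.8, 14.4 and 16.4 CPM (log2 change 2.06 ± 0.12 SE, adjusted p = 1.2e-09). Nrp2 did not share in it, at 54.8, 49 and 51.3 CPM in set B and 47.3, 47.3 and 45.5 CPM in Hp1β/γ Δ/Δ (-0.14). Ntn1 fell from 78, 83.9 and 78.4 CPM to 26.3, 26.7 and 25.9 CPM (log2 change -1.60 ± 0.05 SE, adjusted p = 1.9e-12). Plxna2 fell from 9.82, 10.4 and 10.7 to 4.32, 2.84 and 4.21 CPM (log2 change -1.44 ± 0.14 SE, adjusted p = 8.3e-07). Robo1, a Slit receptor, fell from 60.8, 62.9 and 67.6 to 28.2, 29.1 and 29.4 CPM (log2 change -1.14 ± 0.06 SE, adjusted p = 2.2e-10) and Sema5b from 21.6, 24.1 and 23.8 to 8.33, 8.2 and 9.65 CPM (log2 change -1.40 ± 0.09 SE, adjusted p = 4.8e-09). Both are on chromosome 16, whose median stood -0.46 from other chromosomes; its part in these values was not tested.

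Hp1α/γ Δ/Δ had the most members called among the double mutants, and most were lower. Of 58 tested members 3 were higher and 29 lower, beside 6.75% and 16.3% of all genes, so the lower share was well above the background and the higher share near it, with a median of -0.997 beside -0.0185. Without replicate 2, 30 were called. Of 8 ephrins 6 were lower (median -1.65), of 18 tested semaphorins 9 were lower, and of 11 tested Eph receptors 5 were lower. Efnb1, a B-type ephrin, read 7.55, 7.88 and 6.45 CPM in set B and 0.391, 1.43 and 1.21 CPM in the mutant (log2 change -2.90 ± 0.37 SE, adjusted p = 8.1e-04). Epha8 read 8.34, 11.6 and 10.6 and 1.47, 1.1 and 1.12 CPM (log2 change -3.08 ± 0.22 SE, adjusted p = 1.0e-04). Plxna2 read 9.82, 10.4 and 10.7 and 1.81, 0.66 and 2.24 CPM (log2 change -2.72 ± 0.37 SE, adjusted p = 0.001), and Sema6a 24.1, 28 and 31.2 and 5.63, 3.3 and 4.99 CPM (log2 change -2.61 ± 0.23 SE, adjusted p = 1.9e-04). Each was separate from the control in all libraries. Nrp2 rose to 358, 254 and 359 CPM (log2 change 2.61 ± 0.18 SE, adjusted p = 9.8e-05), Ntn1 to 229.6, 163 and 226 CPM (log2 change 1.33 ± 0.17 SE, adjusted p = 8.1e-04) and Robo4 from 3.01, 3.0 and 3.39 to 11.5, 11.6 and 10.9 CPM (log2 change 1.81 ± 0.14 SE, adjusted p = 1.2e-04). The direction of Ntn1 was thus opposite to that in the other mutants where it was called. In this mutant the 8 stem cell markers summed to 5870 to 8103 CPM against 3405 to 3499 CPM in set B, and 4 of them were called higher. The 12 feeder markers summed to 16.9 to 21.3 CPM against 50.9 to 59.4 CPM. Postn and Twist2, at 0 in every mutant library, had too few counts to be tested. Of 8 tested feeder markers 7 were lower and 1, Col6a3, was higher, where 16.3% and 6.75% of all genes were. The part of the stem cell and feeder markers in the values of the members was not tested.

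The wild-type sets themselves differed in 3 members, all lower in set B. Unc5c and Unc5d had too few counts in set B to pass the filter by that set alone, so they could be called lower in set B but not higher. With set B as a control they could likewise be called higher in a mutant but not lower. Of 59 tested members 0 were higher and 3 lower, where 2.55% and 3.12% of all genes were; DESeq2 called 0 higher too, and at an unadjusted p under 0.05 with no fold threshold edgeR gave 16 higher in set B. Unc5c read 4.4, 5.19 and 6.88 CPM in set A and 0.197, 0.269 and 0.183 CPM in set B (log2 change -4.62 ± 0.31 SE, adjusted p = 2.0e-08), Unc5d 6.15, 6.07 and 7.51 and 0.197, 0.358 and 0.549 CPM (log2 change -4.12 ± 0.27 SE, adjusted p = 1.6e-08), and Sema3c 4.86, 9.13 and 8.39 and 1.14, 1.66 and 1.46 CPM (log2 change -2.38 ± 0.25 SE, adjusted p = 3.3e-06). The same 3 genes rose in the triple mutant. With set B as the control, Unc5c would be higher in Hp1α Δ/Δ (3.27), Hp1β Δ/Δ (3.49) and Hp1α/β Δ/Δ (2.73), and Unc5d in Hp1α Δ/Δ (2.85) and Hp1α/β Δ/Δ (2.40), where against set A they were lower. Libraries of the double mutants compared with set B were at or under 0.654 CPM for both UNC5 receptors, beside 0.183 to 0.269 CPM for Unc5c and 0.197 to 0.549 CPM for Unc5d in set B.

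Counts and TPM of these genes did not keep one ratio. Over all genes, the median TPM per CPM was 0.572 in set A, 0.565 in set B, 0.786 in the triple mutant and 0.755 in Setdb1 Δ/Δ, so TPM values were not compared between groups. For Unc5c the ratio was 0.169 in set B, 1.59 in the triple mutant and 2.06 in Setdb1 Δ/Δ, and for Unc5d 0.19, 1.35 and 2.4. Set B thus lay under its median for both genes and the knockouts over theirs. The ratio depends on the transcript length RSEM assigned, and isoforms were not analysed here. The set A libraries of Unc5c read 11.1, 1.1 and 1.23.

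**Figure D5:**
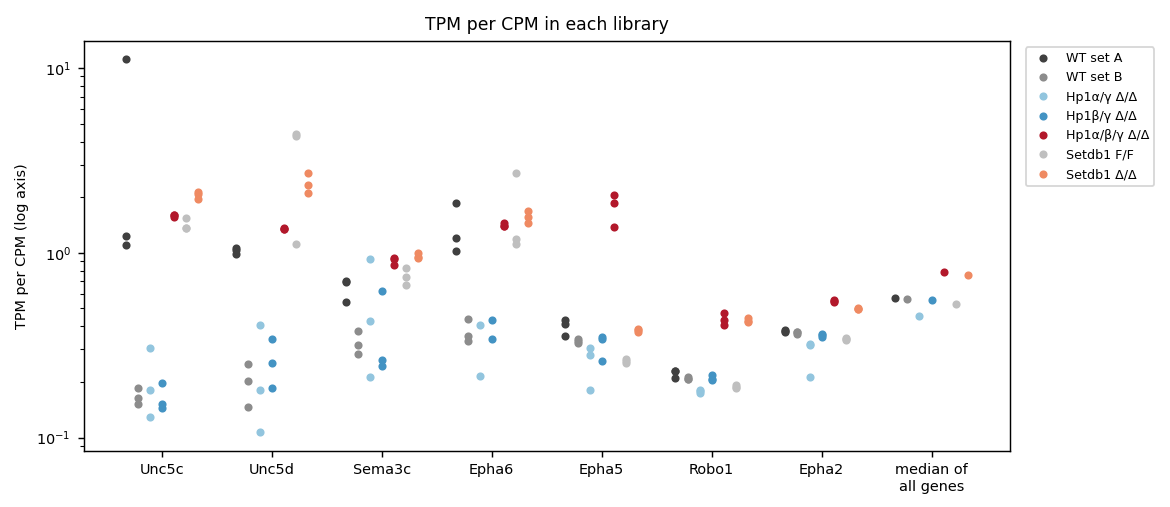
TPM divided by CPM in each library of 7 groups for 7 members, beside the median of all genes, on a log axis. For Unc5c and Unc5d the libraries of set B and of its double mutants lie under the median of all genes and those of the triple mutant and Setdb1 Δ/Δ over it.

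Across the Hp1 mutants, Nrp2 was called higher in 6 of 7 comparisons, Plxna2 lower in 4, Sema5b lower in 3 and Unc5b higher in 3 and lower in 1. Of those 6, 5 share the libraries of set A. Other genes of the pathway were counted too. Of 20 further guidance ligands and receptors, the list named with results of these data known, 17 were tested in the triple mutant, of which 6 were higher and 5 lower, where 25.1% and 17.1% of all genes were. Neo1 (neogenin, a netrin receptor) rose from 61.4, 64.5 and 67 to 182, 176 and 172 CPM (log2 change 1.49 ± 0.04 SE, adjusted p = 3.8e-17) and Nrcam, a cell adhesion molecule that partners with neuropilins, from 12.5, 13.1 and 15 to 64.9, 64.4 and 73.9 CPM (log2 change 2.36 ± 0.07 SE, adjusted p = 4.4e-16). In Setdb1 Δ/Δ, 17 were tested, 5 higher and 3 lower, where 18.5% and 11.4% of all genes were. Counts this small are not read against those shares. The netrin receptor Dcc was higher there (log2 change 2.79 ± 0.45 SE, adjusted p = 2.3e-05), from 0.10, 0.282 and 0.295 to 2.26, 1.42 and 0.991 CPM. The 39 cytoplasmic effectors, which pass the signal to the cytoskeleton, had 4 higher and 19 lower in the triple mutant (median -0.917) and 4 higher and 11 lower in Setdb1 Δ/Δ, so in both knockouts the share lower was above, and the share higher below, the shares of all genes just given, with no test of the list. Their summed level fell from 2827 to 2881 CPM in set A to 1192 to 1199 CPM in the triple mutant. Among them the collapsin response mediators Crmp1 and Dpysl2, which act downstream of semaphorins, fell, with log2 changes of -2.84 and -2.61.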

How the data were processed

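RNA of 33 libraries was measured by RNA-seq. The labels name an Illumina TruSeq RNA kit and the study's methods a stranded total RNA kit, sequenced as paired ends. Per the submitters' processing notes, reads were handled with TopHat2 2.1.1, RSEM and edgeR on GRCm38.p5; whether counting used strand is not given in the sources used here. The authors deposited 8 tables, each with estimated counts (expected counts of RSEM) and TPM values per library; of the rows, 11.2% to 15.5% hold counts that are not whole. The deposited TPM values sum to between 954063 and 988103 per library. The tables also hold the authors' log2 fold changes, adjusted p-values and gene ontology terms, which were not used.

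Groups were taken from the labels. Estimated counts were rounded and tested in R 4.3.3 with edgeR 4.0.16 (filterByExpr with a minimum count of 10, TMM scaling, quasi-likelihood test, Benjamini-Hochberg adjustment over all genes tested). CPM are counts over the TMM-scaled library total; SE is that of the log2 fold change. Each comparison was fitted on its own 6 libraries, and the triple mutant and Setdb1 effects together on 12. DESeq2 1.42.0 and other filters, scalings and controls were tried as alternatives. The test was checked on simulated counts. Exons and positions come from GENCODE M21, where all 68 members matched, and promoter windows from RefSeq on GRCm38.p6. The replicates are biological per the study's methods, but each mutant line is 1 genotype expanded from clones, so p-values measure the spread between cultures. Values in every library are given for called members whose group with more RNA averaged 5 CPM or over, up to the 12 largest rises and falls in the triple mutant, 8 in Setdb1 Δ/Δ and 4 elsewhere, and for the most abundant member of each family; other members with values were chosen after these were seen. The members and lists were chosen with earlier results of these data known. Depth limits the precision of members under 1 CPM.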

Additional observations from a re-analysis of the deposited data

Results flagged for a closer look

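For 45 of 65 tested members the effect of losing all Hp1 proteins differed from the effect of losing Setdb1, by a test of the difference itself over 12 libraries (edgeR's quasi-likelihood test, adjusted p under 0.05, with no fold threshold). Of the 45, 13 had a positive difference and 32 a negative one, where 31.3% and 33.6% of all genes tested did. Among the called members given in every library for either knockout, the difference (triple mutant effect minus Setdb1 effect, log2) was positive for Nrp2 (3.43), Sema3b (3.33), Efna3 (2.32), Sema3e (1.40), Unc5d (1.04), Robo4 (0.89), Sema4a (0.76) and Sema3c (0.72). It was negative for the semaphorins Sema6a (-4.51), Sema5a (-1.52), Sema4d (-1.21), Sema4b (-0.89), Sema6c (-0.79) and Sema4g (-0.67). It was also negative for the Eph receptors Epha8 (-2.98), Epha1 (-2.92), Epha2 (-2.01) and Ephb3 (-0.45), for the ephrins Efnb3 (-2.72) and Efnb2 (-1.70) and for the plexins Plxnd1 (-2.08) and Plxna3 (-1.79). In Nrp2 and Epha1 the 2 effects were called in opposite directions. Unc5d and Efnb2 are on chromosome 8, whose median in this test stood 0.54 above that of other chromosomes, a shift opposite to the difference of Efnb2. Ephb3 is on chromosome 16, at -0.34, and Epha1 and Plxnd1 are on chromosome 6, at 0.30, opposite to their differences. The part of these shifts in the values was not tested. Over all members, 7 of 8 tested plexins and 5 of 8 ephrins had a negative difference past the threshold, where 33.6% of all genes did. No test was made of families this small. In Sema6c, Sema5a, Sema4g, Ephb3, Plxnb2 and Sema4a both knockouts were called lower and differed in size. Cell line and control differ between the experiments and cannot be told apart from genotype.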

How the results depend on the processing

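With 80 pairs of a named member and a comparison, 1044 of 1068 alternative values kept direction and side of the threshold, 19 lost the threshold and 5 reversed; of 154 alternative counts of members, 141 stayed within 1.5 times. With no fold threshold the count of members called was 32 in Hp1α Δ/Δ, 33 in Hp1β Δ/Δ, 34 in Hp1γ Δ/Δ, 32 in Hp1α/β Δ/Δ, 40 in Hp1β/γ Δ/Δ, 56 in the triple mutant, 48 in Setdb1 Δ/Δ and 15 between the wild-type sets, against 7, 8, 7, 11, 10, 35, 31 and 3. With a fold threshold, 28 members differed between the triple mutant and Setdb1 effects. With at least 10 counts in every library, 1 member differed between the wild-type sets. With set B as the control, 12 members were called in Hp1γ Δ/Δ, and Unc5c reversed in Hp1α Δ/Δ (3.27), Hp1β Δ/Δ (3.49) and Hp1α/β Δ/Δ (2.73), as did Unc5d in Hp1α Δ/Δ (2.85) and Hp1α/β Δ/Δ (2.40); the cause was not tested.

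Leaving out 1 library at a time, the counts ran from 3 to 7 in Hp1γ Δ/Δ, 6 to 10 in Hp1α Δ/Δ, 6 to 11 in Hp1β Δ/Δ, 26 to 33 in Hp1α/γ Δ/Δ, 34 to 38 in the triple mutant and 29 to 35 in Setdb1 Δ/Δ. Efna5 in Hp1α Δ/Δ lost the threshold in 5 alternatives, the smallest change being −0.90. With replicate number as a block, the counts were 36 in the triple mutant, 31 in Setdb1 Δ/Δ and 31 in Hp1α/γ Δ/Δ, no named call changed and no count moved by more than 1.5 times. The replicate numbers did not pair libraries: correlations of deviations between same-numbered libraries lay between −0.061 and 0.056. Depth limits the members under 1 CPM, and the wild-type set limits Unc5c, Unc5d and Sema3c.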
